A study of Mus musculus with 48 samples.

Results

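Transcripts of the complement system were followed in the substantia nigra (SN) of mice that received α-synuclein into the striatum and breathed air or low oxygen. The members are 8 genes taken by symbol from the deposited tables, of 19601 protein-coding genes in the batch-corrected tables. *C1qa*, *C1qb* and *C1qc* encode the chains of C1q, *C4b* and *C3* encode C4 and C3, *Serping1* encodes the C1 inhibitor, and *C3ar1* and *C5ar1* encode the receptors of the C3a and C5a fragments. All 8 passed the filter on low counts.

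The mice were C57BL/6J males that received either pre-formed fibrils (PFF) or monomer of α-synuclein by unilateral stereotaxic injection into the right striatum at 121 days of age. They were housed at 21% or 11% O2, which gave 4 groups of 12 separate mice. The published methods give 12 weeks of 11% O2 from the time of injection, whereas the deposited design text gives 6 weeks at 21% O2 followed by 6 weeks at 11% O2. The SN was taken 90 to 98 days after injection and dissected whole, so that the values mix the pars compacta with the neighbouring tissue. After principal components analysis 6 mice were left out by the authors, which leaves 11 monomer and 12 PFF mice at 21% O2 and 9 monomer and 10 PFF mice at 11% O2. Both monomer groups serve as the controls for PFF and themselves carry an injection of α-synuclein. An uninjected group was not analysed here.

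Complement is a cascade of proteins that tags targets for uptake. C1q binds a target, activates the proteases C1r and C1s, and these cleave C4 and C2 to form the convertase that splits C3, after which C3a and C5a signal through their receptors. In the brain, microglia are the main source of C1q, astrocytes are a known source of C4 and C3, and tagging of synapses by C1q and C3 is known from development and disease. The C1 inhibitor, a serpin, blocks C1r and C1s.

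In the 42 mice, 12902996 to 17120921 counts per mouse lay on genes before correction. The tissue label could be checked against markers of dopaminergic neurons, of which 7 of 7 were detected, with *Slc6a3*, the dopamine transporter, between 263 and 1932 TPM. The summed level of those 7 ranged from 545 to 4343 TPM across the 42 mice, and the ranges of the 4 groups overlapped. Of 7 markers of neutrophils and monocytes, *Ly6g* and *Mmp8* had medians of 0, and 6 were too low to be tested. Their summed level ranged from 0.723 to 14.9 TPM, with *S100a9* up to 7.93 TPM, a range that reaches the levels of *C3* and *C5ar1*. With group means subtracted, the r of this summed level was 0.16 with *C3* and 0.27 with *C5ar1*, and highest with *C1qb* at 0.45. The part of these cells in the members' values was not tested. The labels give 3 batches, which the published methods tie to the date of euthanasia. Batch 1 held all 4 groups, batch 2 held no monomer mice at 11% O2, and batch 3 held no monomer mice at 21% O2, so that 11% and 21% O2 share only batch 1 among monomer mice.

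The C1q chains were the most abundant members and the receptor *C5ar1* the least. On the length-normalized TPM scale, after the authors' batch correction, the median over 42 mice was 486 TPM for *C1qa*, 417 TPM for *C1qb* and 194 TPM for *C1qc*. *C4b* had a median of 155 TPM and *Serping1* of 11.9 TPM. The medians of *C3ar1*, *C3* and *C5ar1* were 5.73, 4.66 and 2.07 TPM. Of the neighbours in this order, *C4b* and *Serping1* had ranges that did not meet. *C1qa* was above *C1qb* in 41 of 42 mice, *C1qc* above *C4b* in 37, *Serping1* above *C3ar1* in 34 and *C3ar1* above *C3* in 35. *C1qb* exceeded *C1qc* and *C3* exceeded *C5ar1* in all 42. The low members rest on few reads, since *C5ar1* had 8 to 35 counts per mouse before correction and *C3* had 19 to 145.

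The spread between mice differed by member. *Serping1* varied most, from 1.38 to 33.9 TPM, a 24.5-fold range after correction and a 9.76-fold range (3.21 to 31.4 TPM) before it. *C4b* spanned 4.89-fold and *C3* 4.38-fold, while the C1q chains spanned 2.43-fold to 2.49-fold. Within groups, the SD of the log2 level after correction was 0.31 for *C1qa*, 0.45 for *C4b*, 0.52 for *C3* and 1.14 for *Serping1*, against a median of 0.14 over the 14839 genes tested. Within group and batch before correction, the SD was 0.28 for *C1qa*, 0.37 for *C4b*, 0.44 for *C3* and 0.71 for *Serping1*, against a median of 0.14. The 4 groups held 13.9% of the sum of squares of the *C4b* log2 level and 2.85% of that of *C5ar1*, and the median over all genes tested was 10.9%. Differences among mice of the same group thus made up most of the variation of each member.

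**Figure D1:**
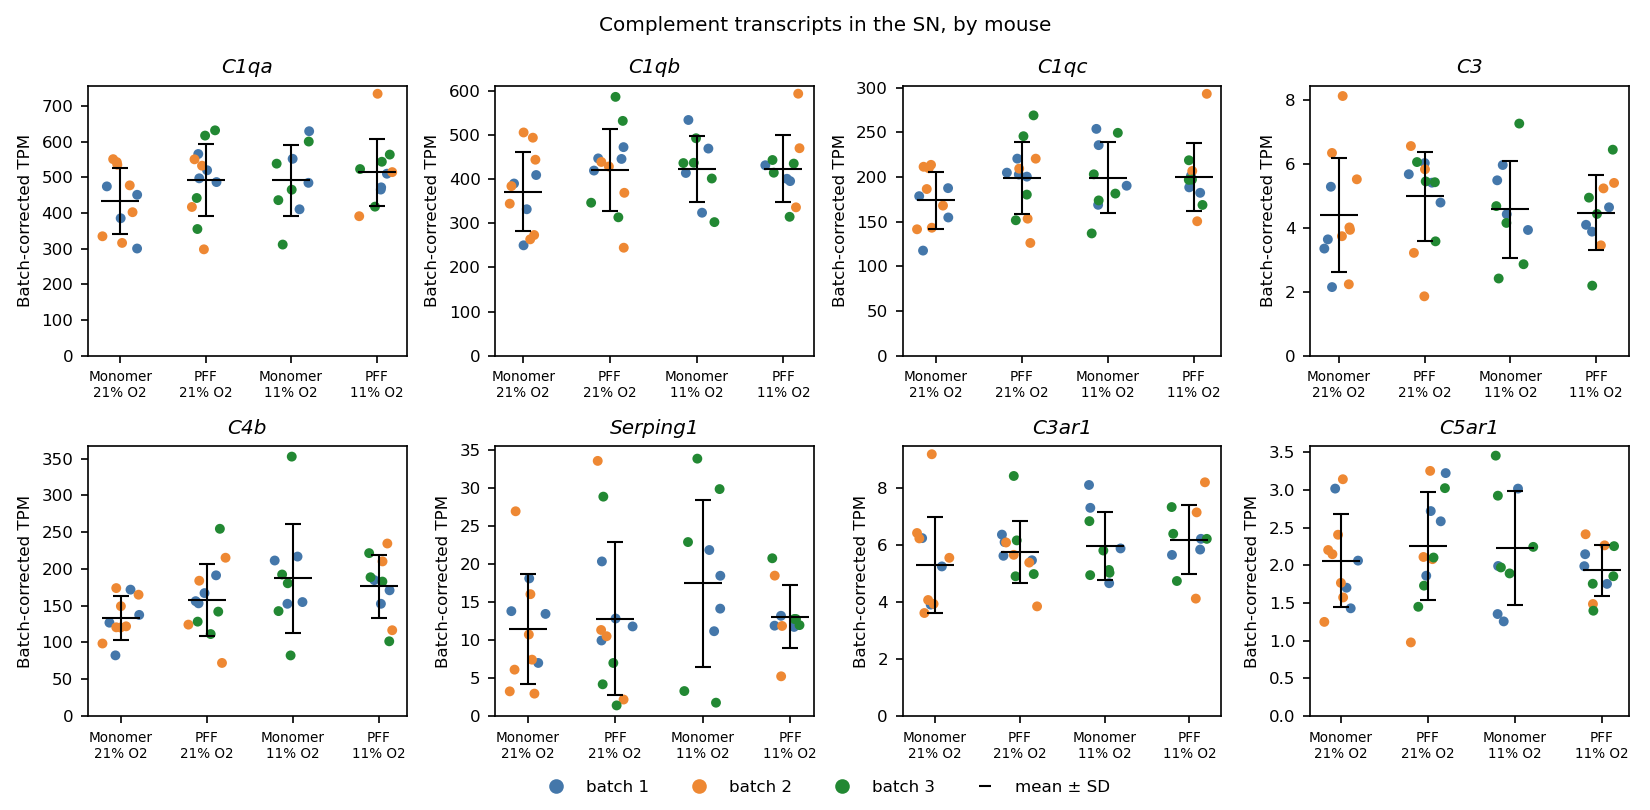
Batch-corrected TPM (vertical axes, starting at 0) of the 8 members in each of the 42 mice, by group (horizontal axes) and coloured by batch, with the mean ± SD of each group as a black bar. The groups overlapped for every member, and the highest *C4b* value, 353 TPM, belonged to a monomer mouse at 11% O2.

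No member passed the test in any of the 5 comparisons. The calls required a Benjamini–Hochberg adjusted p under 0.05 and a log2 fold change beyond 0.25 in edgeR's quasi-likelihood test over 14839 genes. Between PFF and monomer mice at 21% O2, 0 of 8 members were called, where 3.7% of all genes tested were (2.29% higher and 1.41% lower). Between PFF and monomer mice at 11% O2, 0 of 8 members and 0% of all genes were called. Between 11% and 21% O2, 0 of 8 were called among monomer mice, where 7.23% of genes were (4.68% higher and 2.55% lower), and 0 of 8 among PFF mice, where 0.58% were (0.438% higher and 0.142% lower). For the interaction of injection and O2, 0 of 8 were called against 2.14% of genes (1.1% higher and 1.04% lower). At an unadjusted p under 0.05, edgeR gave 1 member, *C4b*, for 11% against 21% O2 in monomer mice and 0 in the other 4 comparisons. That unadjusted threshold was passed by 27.7% of all genes for 11% O2 in monomer mice, 22.4% for PFF at 21% O2, 15.4% for the interaction, 10.7% for 11% O2 in PFF mice and 3.92% for PFF at 11% O2. DESeq2 and limma on log2 TPM called 0 members as well, with *C4b* under the unadjusted threshold in the same comparison. With counts before correction and batch as a covariate, 0 were called, where 3.23% of all genes were for PFF at 21% O2. For 11% O2 in monomer mice, 4.44% of all genes were called in that fit. Its unadjusted threshold was passed by *C1qa*, *C1qb* and *C1qc* for PFF at 21% O2. For 11% O2 in monomer mice it was passed by *C1qc* and *C4b*. The share of all genes at the unadjusted threshold is not given for this fit, and the C1q chains vary together.

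Although no member was called, the fold changes had a common direction in some comparisons. With PFF at 21% O2, 8 of 8 members had positive log2 fold changes, between 0.13 and 0.26 with a median of 0.19, while 50.4% of all genes tested were positive and their median was 0.00085. With 11% O2 in monomer mice, 8 of 8 were positive, between 0.06 and 0.62 with a median of 0.19, against 47.9% of all genes. These comparisons share the 11 monomer mice at 21% O2. With PFF at 11% O2, 4 of 8 were positive, and the median was -0.00077. With 11% O2 in PFF mice, 6 of 8 were positive, with a median of 0.02. The interaction was negative for 8 of 8 and had a median of -0.20. The members vary together, as given further on, so that their signs are not separate observations.

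**Figure D2:**
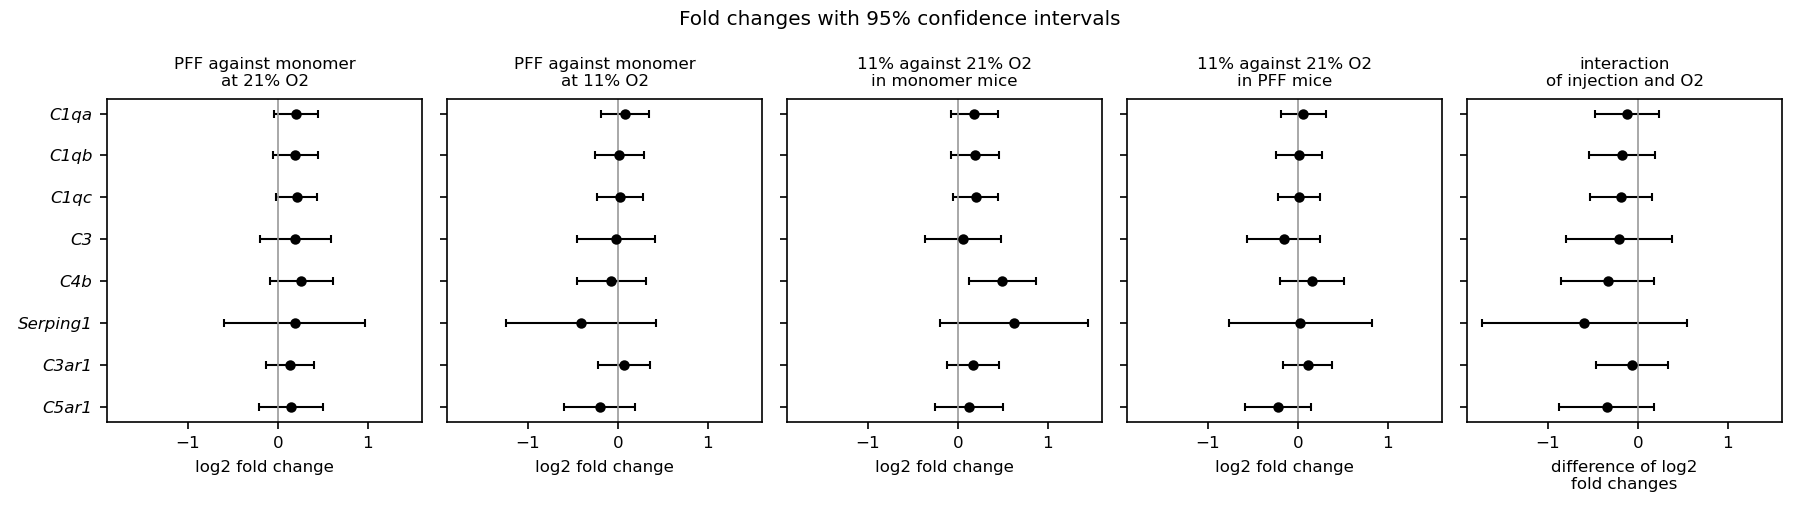
Log2 fold changes (points, horizontal axes) of the 8 members with 95% confidence intervals (bars) in the 4 comparisons and, in the last panel, the interaction as a difference of log2 fold changes. The interval for *C4b* with 11% O2 in monomer mice runs from 0.12 to 0.87 and is the only one of the 40 that leaves out 0, and the intervals of *Serping1* are the widest.

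The C1q genes, which encode the recognition part of the classical pathway, lie side by side on the minus strand of chromosome 4 (GRCm38, GENCODE vM21): *C1qb* at chr4:136880129-136886187, *C1qc* at chr4:136889804-136893065 and *C1qa* at chr4:136895917-136898803, all within 18675 bases. *C1qa* ranged from 301 to 551 TPM with a median of 451 in monomer mice at 21% O2, from 298 to 632 with a median of 509 in PFF mice at 21% O2, from 312 to 630 with a median of 485 in monomer mice at 11% O2, and from 391 to 735 with a median of 513 in PFF mice at 11% O2. The groups overlapped throughout, and 3 of 12 PFF mice at 21% O2 lay above the highest monomer mouse while 1 lay below the lowest. The fold change with PFF at 21% O2 was 1.15, with a 95% confidence interval of 0.972 to 1.36 (adjusted p = 0.325). With 11% O2 in monomer mice it was 1.14, with an interval of 0.949 to 1.36 (adjusted p = 0.370).

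The other chains also overlapped between all groups, and the order of their group medians differed from that of *C1qa*. *C1qb* had medians of 384, 434, 437 and 423 TPM in monomer and PFF mice at 21% O2 and monomer and PFF mice at 11% O2, with a full range of 245 to 594 TPM. *C1qc* had medians of 178.6, 203.9, 190.3 and 197.0 TPM in that order, between 118 and 293 TPM. With PFF at 21% O2, the log2 fold change of *C1qb* was 0.19 ± 0.12 (SE, adjusted p = 0.362) and that of *C1qc* 0.21 ± 0.11 (SE, adjusted p = 0.276). With PFF at 11% O2, *C1qa*, *C1qb* and *C1qc* had log2 fold changes of 0.08, 0.02 and 0.02, whose 95% intervals reached no further than 0.34. Changes of *C1qa* larger than 1.36-fold with PFF at 21% O2 or with 11% O2 in monomer mice lie outside its intervals. These intervals hold for the corrected counts of all batches, and the estimates within batch 1 alone, given below, lay beyond them.

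For C1q the batches differed. Before correction, batch 1 had a mean *C1qa* level of 383 TPM over 15 mice, against 457 TPM over 14 mice in batch 2 and 511 TPM over 13 mice in batch 3. Within batch 1, with 4 mice in each group, PFF at 21% O2 gave log2 fold changes of 0.47 ± 0.20 for *C1qa*, 0.50 ± 0.22 for *C1qb* and 0.49 ± 0.19 for *C1qc* (SE; adjusted p in edgeR from 0.342 to 0.364). Within batch 2 the same contrast gave 0.05 ± 0.14, 0.02 ± 0.13 and 0.03 ± 0.13, with 7 monomer and 4 PFF mice. The difference between batches was not tested. Batch 1 is also the only batch with monomer mice at both O2 levels. There, 11% O2 in monomer mice gave log2 fold changes of 0.47 ± 0.20 for *C1qa*, 0.43 ± 0.22 for *C1qb* and 0.53 ± 0.19 for *C1qc* (SE). The adjusted p in edgeR was 0.148 to 0.286. Monomer mouse 4 at 21% O2, a mouse of batch 1, had the lowest *C1qa* level of all 42 before correction, 195 TPM. It was also the lowest of the 42 for *C1qb*, *C1qc*, *C3*, *C4b*, *Serping1* and *C3ar1*. With only 4 monomer mice at 21% O2 in batch 1, the batch 1 values against that group, here and below, rest in part on this mouse.

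*C4b* encodes C4, the substrate of C1s, and lies at chr17:34728380-34743882 on the minus strand. It was the member nearest to a call. *C4b* ranged from 82.4 to 173.9 TPM with a median of 127 in monomer mice at 21% O2, from 72.1 to 254 with a median of 155 in PFF mice at 21% O2, from 82.3 to 353 with a median of 180 in monomer mice at 11% O2, and from 101 to 234 with a median of 183.7 in PFF mice at 11% O2. Among monomer mice, 5 of 9 at 11% O2 lay above the highest mouse at 21% O2, while 1 lay just below the lowest, so the groups overlapped. The fold change was 1.41, with a 95% confidence interval of 1.09 to 1.82 (log2 0.49 ± 0.18 SE, adjusted p = 0.0684), which did not pass the threshold. Within batch 1, the only batch with both groups, it was 0.52 ± 0.27 on the log2 scale (edgeR adjusted p = 0.289). The 4 monomer mice at 21% O2 in that batch include mouse 4, with the lowest *C4b* level before correction, 43.5 TPM. The adjusted p ranged from 0.0317 to 0.289 over the alternatives, and *C4b* was called when the 6 left-out mice were added to a fit with a batch covariate (0.57, adjusted p = 0.0317) and with counts before correction without a batch term (0.51, adjusted p = 0.0413).

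The *C4b* call also depended on which mice were in the fit. It passed without monomer mouse 3 at 21% O2 (adjusted p = 0.0498), without PFF mouse 5 at 21% O2 (0.0487) and without monomer mouse 5 at 11% O2 (0.0190), and over all 42 fits that left out a mouse the log2 fold change lay between 0.33 and 0.59. For the other comparisons, *C4b* had log2 fold changes of 0.26 ± 0.17 with PFF at 21% O2 (adjusted p = 0.383), -0.07 ± 0.19 with PFF at 11% O2 and 0.16 ± 0.18 with 11% O2 in PFF mice. The interaction was -0.33 ± 0.26 (SE, adjusted p = 0.577). *C4a*, a related gene 65209 bases away, shares 8.26% of the 150-base words of the longest *C4b* transcript, and its counts were 0.535% to 3.03% of those of both genes. Since reads with several alignments went to the primary one, some reads of either gene could have been counted for the other, and adding the *C4a* counts to *C4b* left the call as it was.

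*C3*, the central component on which all pathways converge, lies at chr17:57203970-57228136 on the minus strand. It ranged from 2.14 to 8.12 TPM with a median of 3.93 in monomer mice at 21% O2, from 1.85 to 6.55 with a median of 5.43 in PFF mice at 21% O2, from 2.41 to 7.26 with a median of 4.42 in monomer mice at 11% O2, and from 2.19 to 6.44 with a median of 4.53 in PFF mice at 11% O2. The highest of the 42 values was in a monomer mouse and the lowest in a PFF mouse, both at 21% O2, and every group overlapped every other. The log2 fold change with PFF at 21% O2 was 0.19 ± 0.20 (SE, adjusted p = 0.599). It was 0.82 ± 0.30 within batch 1 and -0.06 ± 0.22 within batch 2 (SE; edgeR adjusted p = 0.328 and 0.911). With 11% O2 it was 0.06 ± 0.21 in monomer mice and -0.16 ± 0.20 in PFF mice. Within batch 1, the only batch with both monomer groups, 11% O2 in monomer mice gave 0.66 ± 0.30 (SE, edgeR adjusted p = 0.231). Both batch 1 values are set against 4 monomer mice at 21% O2. Among them is mouse 4, with the lowest *C3* level before correction, 1.02 TPM from 19 counts.

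*Serping1*, whose product inhibits C1r and C1s, lies at chr2:84765387-84775444 on the minus strand and was the most variable member. It ranged from 2.94 to 27.0 TPM with a median of 10.7 in monomer mice at 21% O2, from 1.38 to 33.6 with a median of 10.9 in PFF mice at 21% O2, from 1.74 to 33.9 with a median of 18.5 in monomer mice at 11% O2, and from 5.22 to 20.8 with a median of 12.4 in PFF mice at 11% O2. The PFF mice at 11% O2 had the narrowest spread, with a coefficient of variation of 31.9% against 63.1% to 78.6% in the other groups. Before correction these were 30.0% and 48.6% to 63.4%. The left-out PFF mice at 11% O2 had 157 and 41.1 TPM before correction. The lowest corrected value, 1.38 TPM, was 5.68 TPM before correction, so part of the corrected spread arose with the correction. The log2 fold change with 11% O2 in monomer mice was 0.62 ± 0.41 (SE, adjusted p = 0.333), with a 95% interval of -0.20 to 1.44, and 0.09 ± 0.41 within batch 1 (edgeR adjusted p = 0.921). With PFF it was 0.19 ± 0.39 at 21% O2 and -0.41 ± 0.41 at 11% O2. As a fold change, the interval in monomer mice ran from 0.871 to 2.72, so that the spread between mice left a wide range of changes undetectable.

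The anaphylatoxin receptors, *C3ar1* at chr6:122847138-122856161 and *C5ar1* at chr7:16246743-16259540, both on the minus strand, showed no call. *C3ar1* had medians of 5.25, 5.64, 5.81 and 6.22 TPM in monomer and PFF mice at 21% O2 and monomer and PFF mice at 11% O2, within 3.61 to 9.19 TPM. *C5ar1* had medians of 2.06, 2.11, 1.99 and 1.92 TPM in that order, within 0.977 to 3.46 TPM. Each group overlapped the others for both receptors. The log2 fold change with PFF at 21% O2 was 0.13 ± 0.13 for *C3ar1* (SE, adjusted p = 0.595) and 0.14 ± 0.18 for *C5ar1* (SE, adjusted p = 0.674). With 11% O2 in PFF mice, *C5ar1* had -0.22 ± 0.18 and *C3ar1* 0.11 ± 0.14. The interaction of injection and O2 for *C5ar1* was -0.35 ± 0.26 (SE, adjusted p = 0.568).

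The interaction, the difference between the effect of PFF at 11% O2 and at 21% O2, was negative for every member in the 42 mice without a call. On the log2 scale it ranged from -0.07 ± 0.20 for *C3ar1* to -0.59 ± 0.57 for *Serping1* (SE, adjusted p from 0.568 to 0.919). Within batch 1, the only batch with all 4 groups, it was -0.67 ± 0.29 for *C1qa*, -0.65 ± 0.32 for *C1qb*, -0.73 ± 0.29 for *C1qc* and -1.18 ± 0.44 for *C3* (SE, edgeR adjusted p from 0.521 to 0.528). The same batch gave -0.61 ± 0.39 for *C4b*, -0.58 ± 0.35 for *C3ar1*, -0.36 ± 0.62 for *Serping1* and -0.28 ± 0.56 for *C5ar1* (SE). Their adjusted p in edgeR was 0.559 to 0.862. That batch holds 4 monomer and 4 PFF mice at 21% O2 and 4 monomer and 3 PFF mice at 11% O2, among them monomer mouse 4.

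Across mice, the members were not independent of each other. With group means subtracted from the log2 level, Pearson's r over 42 mice was 0.96 between *C1qa* and *C1qb*, 0.98 between *C1qa* and *C1qc*, and 0.95 between *C1qb* and *C1qc*, with Spearman's rho from 0.952 to 0.981. The permutation p was 1e-05 for each of these, the smallest that 100000 permutations of mice within groups can give, and 2.3e-05 after adjustment over the 28 pairs. Of the 28 pairs, 26 had an adjusted permutation p under 0.05 for r and 26 for rho. The share of other gene pairs that would pass was not computed. The median r of a member with all genes tested lay between -0.012 for *Serping1* and 0.017 for *C1qb*. The permutations did not keep mice within their batch. The pairs that did not pass were *Serping1* with *C3* (r = 0.14, rho = 0.15) and with *C5ar1* (r = 0.14, rho = 0.16).

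Correlations outside C1q were lower. *C4b* correlated with the C1q chains at r = 0.74 to 0.81 and rho = 0.751 to 0.806, and *C3ar1* with them at r = 0.75 to 0.78 and rho = 0.785 to 0.824, with adjusted permutation p of 2.3e-05 for all 6. *C3* correlated with *C4b* at r = 0.76 (rho = 0.72, adjusted permutation p = 2.3e-05). *C5ar1* had r from 0.43 to 0.45 with C1q, and *Serping1* from 0.44 to 0.51. Leaving out the 2 mice farthest from the median of the first gene gave r from 0.94 to 0.98 within C1q, 0.66 to 0.75 for C1q with *C4b*, 0.36 to 0.42 for C1q with *Serping1* and 0.27 to 0.34 for C1q with *C5ar1*. Within single batches of counts before correction, r within C1q was between 0.94 and 0.99, whereas that of *Serping1* with *C5ar1* was between -0.20 and 0.48. The counts of *C5ar1* are low, and its weak correlations carry counting error.

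Promoters of the C1q chains are shown because these genes moved together more closely than any other members. The reference table held promoters for 5 of the 8 members, *C1qb*, *C1qc*, *C3*, *C3ar1* and *C5ar1*, and the 250 bases before each start as RefSeq gives it were searched on both strands for the core letters GAGGAA bound by PU.1, a transcription factor of microglia and macrophages. The match is in capitals in the minus-strand sequences from RefSeq on GRCm38.p6, written 5′ to 3′, for chr4:136886201-136886450 (*C1qb*) and chr4:136893066-136893164 (*C1qc*). The RefSeq starts differ from the GENCODE genes given above, so that of the 250 bases searched 99 lie outside the GENCODE gene for *C1qc*, 48 for *C5ar1* and 246 for *C3ar1*, and all of them for *C1qb* and *C3*. Only the 99 bases outside the gene are printed for *C1qc*.
C1qb: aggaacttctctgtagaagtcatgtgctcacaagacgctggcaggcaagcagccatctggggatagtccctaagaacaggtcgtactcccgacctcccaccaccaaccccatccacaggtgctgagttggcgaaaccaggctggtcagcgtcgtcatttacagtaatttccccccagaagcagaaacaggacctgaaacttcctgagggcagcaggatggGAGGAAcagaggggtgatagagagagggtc
C1qc: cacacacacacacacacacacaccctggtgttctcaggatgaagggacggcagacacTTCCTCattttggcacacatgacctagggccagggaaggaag
In *C1qb* the match begins 30 bases before the RefSeq start, and in *C1qc* it lies on the opposite strand and begins at base 58 of the printed sequence. These letters occur in 23.3% of the 32851 promoters of the table at this length, so a match in 2 of 5 is a description and no sign of binding. The windows of *C3*, *C3ar1* and *C5ar1* held no such match. The letters TTCNNNGAA (STAT factors, 7.02% of all promoters), TTGCGCAA (C/EBP, 0.164%) and the NF-κB motif (0.356%) were found in none of the 5 windows.

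The genes with the most similar pattern differed by member. They are given as a description with no p, since the 3 highest of 14839 genes were taken by the same within-group correlation over 42 mice, which share libraries and tissue content. *C1qa* was closest to *Trem2*, a receptor of microglia (r = 0.95, rho = 0.95), followed by *Unc93b1*, a chaperone of Toll-like receptors (0.92), and *Ctss*, a lysosomal protease of microglia (0.91). *C1qb* was closest to *Ctss* (0.95), *Ly86* (0.93) and *Fcer1g* (0.93), and *C1qc* to *Trem2* (0.96), *Ctss* (0.92) and *Ctsz* (0.92). *C3ar1* was closest to *Ncf1*, a subunit of the phagocyte NADPH oxidase (0.83), *Neurl3* (0.83) and *Adgre1*, which encodes the macrophage antigen F4/80 (0.82).

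For the downstream components and the inhibitor, other genes came first. *C4b* was closest to *Gfap*, the intermediate filament of astrocytes (r = 0.96, rho = 0.93), then *Padi2* (0.90) and *Msn* (0.89). Within batches 1, 2 and 3 before correction, r of *C4b* with *Gfap* was 0.96, 0.95 and 0.97. *C3* was closest to *Itpkb* (0.84), *Hspb8* (0.84) and *Fbxo2* (0.82). *Serping1* was closest to *Dcn*, which encodes decorin of the fibroblast matrix (r = 0.92, rho = 0.89), *Slc6a20a*, a proline transporter (0.91), and *Vtn*, which encodes vitronectin (0.90). *C5ar1* had no neighbour above 0.66, with *Was*, *Fam20a* and *Msn* at 0.66, 0.66 and 0.65.

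**Figure D3:**
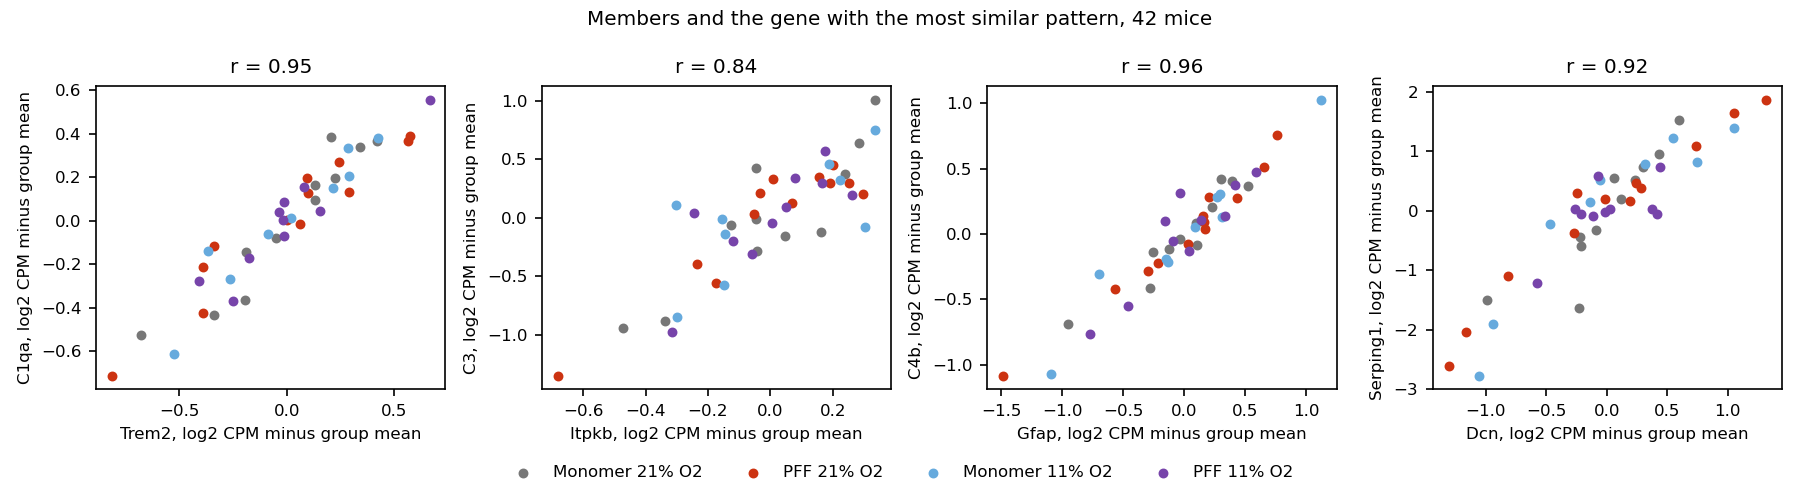
Log2 CPM minus the group mean of 4 members (vertical axes) and of the gene with the most similar pattern (horizontal axes) in the 42 mice, coloured by group. The points of all 4 groups lie along common lines, with r of 0.95 for *C1qa* and *Trem2*, 0.84 for *C3* and *Itpkb*, 0.96 for *C4b* and *Gfap* and 0.92 for *Serping1* and *Dcn*.

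Marker lists of cell types were set against the members in the same way, over 42 mice with group means subtracted. The summed level of 12 microglial genes had r of 0.92 to 0.95 with the C1q chains, 0.80 with *C3ar1*, 0.71 with *C4b*, 0.53 with *C3* and 0.48 with *Serping1*. The summed level of 8 astrocyte genes had r of 0.94 with *C4b*, 0.76 with *C3*, 0.84 to 0.88 with the C1q chains and 0.49 with *Serping1*. The summed level of 6 fibroblast genes had r of 0.94 with *Serping1* and 0.08 with *C3*, and border macrophage genes had 0.73 with *Serping1*. The lists are thus not separate from each other, because microglial and astrocyte genes both moved with C1q. Nor are they separate from the closest genes above, since *Trem2* and *Gfap* belong to them. *Gfap* had the widest range of the 8 astrocyte genes, 390 to 2475 TPM, so the astrocyte r with *C4b* largely repeats that with *Gfap*. The dopaminergic list had negative r with every member, from -0.66 for *C1qc* to -0.24 for *Serping1*. In bulk tissue, a change in the number of cells of a type and a change in RNA per cell cannot be told apart, and the part of tissue content in the members' values was not tested.

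The relation of *Serping1* to fibroblast markers is also plotted for the mice that were left out.

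**Figure D4:**
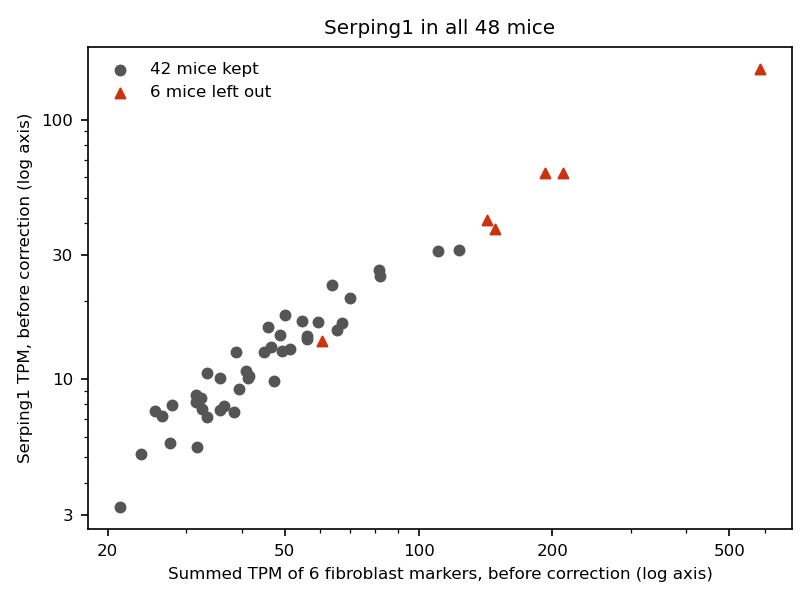
*Serping1* (vertical axis) against the summed level of 6 fibroblast markers (horizontal axis), both in TPM before correction on log axes, in 42 kept mice (grey circles) and 6 left-out mice (red triangles). Of the left-out mice, 5 lie beyond the kept mice on both axes, up to 157 TPM of *Serping1*.

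**Figure D5:**
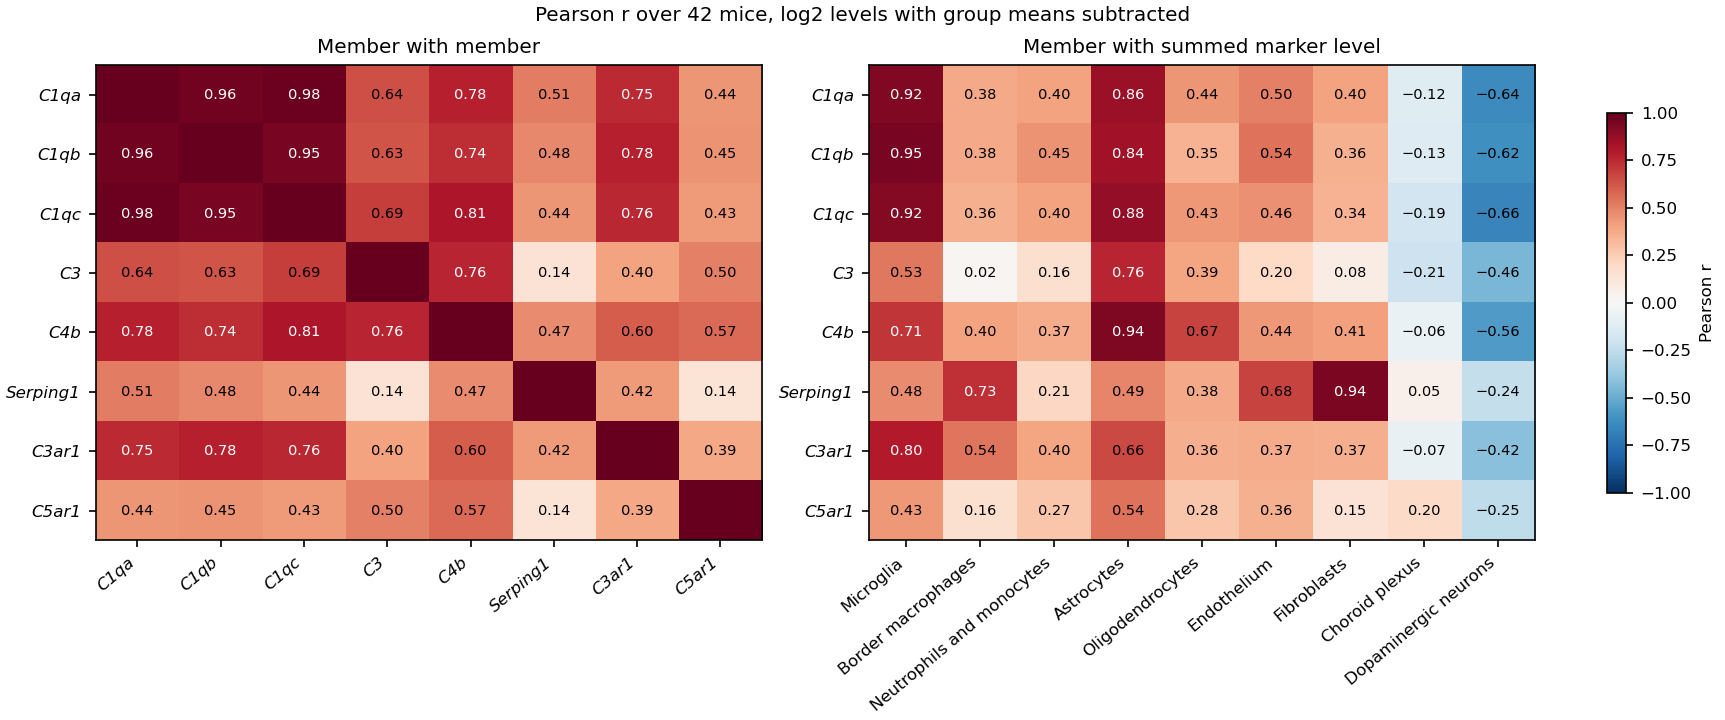
Pearson's r between members (left) and between each member and the summed level of a cell type marker list (right), over 42 mice with group means subtracted, on a scale from −1 (blue) to 1 (red). The C1q chains form a block at 0.95 to 0.98, *C4b* is highest with astrocytes at 0.94 and *Serping1* with fibroblasts at 0.94.

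The marker lists themselves did not pass between groups for the cell types nearest to the members. Of 12 microglial genes, 0 were called in each of the 5 comparisons by edgeR, with 10 of 12 positive and a median log2 fold change of 0.13 for PFF at 21% O2 and 12 of 12 positive and a median of 0.16 for 11% O2 in monomer mice. Their summed level ranged from 779 to 1461 TPM in monomer mice and from 856 to 1523 in PFF mice at 21% O2, and from 981 to 1447 and from 939 to 1678 at 11% O2. Of the 8 astrocyte and 6 fibroblast genes, 0 were called as well. Of all genes tested, 0% to 7.23% were called, depending on the comparison. Of the endothelial genes, 5 of 5 were called higher at 11% O2 in monomer mice, where 4.68% of all genes were, and 2 of 5 in PFF mice, where 0.438% were. Of 7 oligodendrocyte genes, *Cnp*, *Mog* and *Opalin* were called higher at 11% O2 in monomer mice, where 4.68% of all genes were. In that comparison *C4b* came nearest to a call. *Opalin* was called higher with PFF at 21% O2, where 2.29% of all genes were. *Mog* and *Opalin* had a called negative interaction, against 1.04% of all genes. The summed oligodendrocyte level had r of 0.67 with *C4b*, and its part in the *C4b* values was not tested.

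The C1q chains and *C4b* were also set against marker genes within each mouse. The summed C1q level over the summed microglial level was 0.897 ± 0.0707 (SD, n = 11) in monomer mice and 0.947 ± 0.0826 (n = 12) in PFF mice at 21% O2, and 0.914 ± 0.0783 (n = 9) and 0.946 ± 0.0362 (n = 10) at 11% O2. Its coefficient of variation was 3.82% to 8.72%, against 18.4% to 21.2% for *C1qa* itself. *C4b* over *Gfap* was 0.131 ± 0.0124 and 0.141 ± 0.0163 in monomer and PFF mice at 21% O2, and 0.153 ± 0.0185 and 0.159 ± 0.0205 at 11% O2. At 11% O2, 9 of 9 monomer mice were above the median of the monomer mice at 21% O2, and the ranges overlapped, since 1 of 9 was above the highest. The ratios are a description chosen with the data in view, and their differences were not tested.

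The 6 lists of complement genes hold 61 genes with the members and 53 without them, of which 41 and 33 passed the filter. None of the 33 was called for PFF at 11% O2 or for 11% O2 in PFF mice by edgeR. *Cd46*, a membrane regulator of C3b and C4b, was called higher with PFF at 21% O2, which makes 1 of 33 where 3.7% of all genes were called. *Cd46*, *Vtn*, *Cfp* and *Nptx2* were called for 11% O2 in monomer mice, the first pair higher and the second pair lower, which makes 4 of 33 where 7.23% of all genes were called. The interaction was called for *Cd46*, 1 of 33 against 2.14% of all genes. The classical list had 7 of 8 genes tested and 0 called, and the lectin list 5 of 9 and 0 called. In the terminal list only *C8g* of 7 was tested, and the remaining genes were near 0, with *C6* and *C9* at a median of 0 TPM before correction. *Hc*, which encodes C5, had 7 counts at most in any of the 42 mice before correction.

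*Cd46* ranged from 3.12 to 5.21 TPM with a median of 4.02 in monomer mice at 21% O2, from 4.41 to 7.14 with a median of 5.75 in PFF mice at 21% O2, from 4.11 to 7.31 with a median of 5.14 in monomer mice at 11% O2, and from 4.50 to 6.28 with a median of 4.91 in PFF mice at 11% O2. At 21% O2, 12 of 12 PFF mice were above the median of the monomer mice and 7 above the highest. Its log2 fold change was 0.47 ± 0.10 with PFF at 21% O2 (SE, adjusted p = 0.00156) and 0.39 ± 0.10 with 11% O2 in monomer mice (SE, adjusted p = 0.00917), and the interaction was -0.55 ± 0.14 (SE, adjusted p = 0.0241). The batches disagreed in size. With PFF at 21% O2 it was 0.10 ± 0.13 within batch 1 (edgeR adjusted p = 0.732) and 0.78 ± 0.10 within batch 2 (edgeR adjusted p = 0.000584), where the 7 monomer mice had 3.32 ± 0.462 TPM (SD) before correction against 5.04 ± 0.255 for the 4 of batch 1. Within batch 1, the only batch with the groups needed, 11% O2 in monomer mice gave 0.17 ± 0.12 (edgeR adjusted p = 0.464) and the interaction -0.13 ± 0.18 (edgeR adjusted p = 0.788). The interaction also did not pass without monomer mouse 2 at 11% O2 (-0.50, adjusted p = 0.0501).

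The remaining calls were between monomer mice at 11% and 21% O2. *Cfp*, which encodes properdin, the stabilizer of the alternative convertase, had medians of 25.8 and 36.7 TPM and a log2 fold change of -0.41 with an SE of 0.09 (adjusted p = 0.00100), with 0 of 9 mice above the median at 21% O2. Within batch 1 this difference was -0.37 ± 0.10 (edgeR adjusted p = 0.0702). With PFF at 21% O2, *Cfp* gave -0.23 ± 0.08 (SE, adjusted p = 0.0685), with 0.06 ± 0.10 within batch 1 and -0.46 ± 0.12 within batch 2 (edgeR adjusted p = 0.801 and 0.0317). *Vtn*, an inhibitor of the terminal complex that pericytes also express, rose by 0.58 ± 0.17 (SE, adjusted p = 0.0186), and gave 0.41 without monomer mouse 11 at 11% O2 (adjusted p = 0.0846). The *Vtn* call was also lost in 4 of 14 other alternatives, among them counts before correction with batch as a covariate (0.49, adjusted p = 0.0786) and batch 1 alone (0.32, adjusted p = 0.285). *Nptx2*, a neuronal pentraxin of excitatory synapses that is related to the C1q-binding pentraxins, had a log2 fold change of -0.93 with an SE of 0.31 (adjusted p = 0.0383), and gave -0.62 without monomer mouse 9 at 21% O2 (adjusted p = 0.158). The *Nptx2* call was lost in 9 of 14 other alternatives (adjusted p from 0.0532 to 0.170), among them the batch covariate, limma and the replicate block, and in 8 of 42 fits without a mouse (adjusted p from 0.0502 to 0.158), which left out monomer mice 1, 7 and 9 at 21% O2 or 1, 4, 6, 7 and 10 at 11% O2. *Cr1l*, a rodent regulator of C3 convertases chosen after its values were seen, gave -0.19 ± 0.05 (SE, adjusted p = 0.0113), which is under the fold change that a call required.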

How the data were processed

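Bulk RNA-seq libraries (poly(A) selected, without strand information) of the SN of 48 mice were prepared and processed by the authors, who removed ribosomal DNA reads, aligned the rest to mm10 with STAR 2.7.5a, removed duplicates with Picard 2.21.9 and counted reads per gene with featureCounts 2.0.1, as the submitters' processing notes and the published methods give. The deposited counts are whole numbers without normalization for 55385 genes. The authors then left out 6 mice, applied ComBat-seq, and deposited corrected counts for 19601 genes in 42 mice. The deposited TPM were computed by the authors from these counts. For ComBat-seq the published methods name O2 status and injection type as covariates, and no term for their interaction. Corrected values can therefore carry group differences that batches hold unequally, and every contrast was also fitted on counts before correction. How the correction acted on the interaction was not tested.

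For the corrected counts, the quasi-likelihood test of edgeR 4.0.16 was run (R 4.3.3, TMM scaling, filterByExpr, 4 groups in 1 fit, Benjamini–Hochberg over 14839 genes). Each SE was obtained by dividing the size of the log2 fold change by the square root of F, and intervals are at 95%. Alternatives used DESeq2 1.42.0, limma 3.58.1 on log2-transformed TPM (pseudocounts 1 and 0.1), other batch handling, single batches, a replicate block and fits without each mouse. Correlations used log2 CPM with a prior count of 1 and group means subtracted, with two-sided permutation tests over 100000 permutations within groups. Additional fits of counts before correction without monomer mouse 4 at 21% O2, and of batches 2 and 3 together, were chosen after seeing the data. Genes named are the members, other complement genes called in any comparison, and the 3 genes closest to each member. Other genes (*Cr1l*, *C4a*, low complement genes and cell type markers) were named outside this rule, after their values were seen. Members, lists and rules were chosen with earlier results of these data known. Replicates are separate mice. Depth was 12902996 to 17120921 counts per mouse in the 42 mice and 3134594 to 16748035 in the 6 left out. No 2 libraries were identical, and mice of the same group differed by more than sampling noise (chi-square per degree of freedom from 2.08 to 31.5). The scripts were tested on simulated data.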

Additional observations from a re-analysis of the deposited data

Results flagged for a closer look

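The 6 mice that the authors left out held values above all 42 others for several members, as TPM before correction, and they enter only the fits of all 48 mice. *Serping1* was at 157 TPM in PFF mouse 5 and 41.1 TPM in PFF mouse 2 at 11% O2, at 62.3 and 37.9 TPM in monomer mice 12 and 8 at 11% O2, and at 62.0 TPM in monomer mouse 10 at 21% O2, where the highest of the 42 had 31.4 TPM. The summed level of 6 fibroblast markers in those 5 mice was 585.6, 142.8, 210.7, 148.4 and 192.2 TPM in the same order, also above the highest of the 42, 123 TPM. In the sixth mouse, monomer mouse 9 at 11% O2, *Serping1* was 14.1 TPM and the fibroblast sum 60.6 TPM. The part of fibroblast content in the *Serping1* values was not tested.

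In monomer mouse 8 at 11% O2, *C1qa* was 650 TPM, *C1qb* 532 TPM, *C1qc* 281 TPM, *C3* 6.95 TPM and *C3ar1* 8.76 TPM, each above the highest of the 42. In monomer mouse 9 at 11% O2, *C1qa* was 641 TPM, *C1qb* 544 TPM, *C1qc* 260 TPM, *C3* 7.34 TPM and *C4b* 293 TPM, each above the highest of the 42 (for *C4b*, 290 TPM). *C5ar1* was 4.51 TPM in PFF mouse 2 at 11% O2, from 12 counts in a library of 3134594 counts. Both monomer mice belong to the group in which *C4b* came nearest to a call, and with all 48 mice in the fit it was called.

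Within groups of 9 or 10 mice, the highest mouse stood apart from the rest by Dixon's criterion in 3 of 16 tests of the members. PFF mouse 8 at 11% O2 had 735 TPM of *C1qa* and 293 TPM of *C1qc*, and monomer mouse 7 at 11% O2 had 353 TPM of *C4b*. Chance gives about 1 such flag in 20 groups, and the C1q chains are not separate tests. Without monomer mouse 7, the *C4b* fold change with 11% O2 in monomer mice is the lowest of the fits that leave out a mouse. The difference between the effects of PFF at 21% and 11% O2 passed the test for *Cd46* (-0.55 on the log2 scale), with the batch values given above.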

How the results depend on the processing

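The count of members called, 0 in each comparison, became 1 in 2 alternatives, both for 11% against 21% O2 in monomer mice and both through *C4b*: all 48 mice with batch as a covariate (1 member) and counts before correction without a batch term (1 member). Fits that left out a mouse gave 0 to 1 members there and 0 in the other comparisons. Of 613 member values under the remaining alternatives, 49 changed sign, none of them past the threshold. Of 1680 values from fits without a mouse, 37 changed sign and 3 passed the threshold. Over all genes, counts before correction with batch as a covariate gave 657 calls for 11% O2 in monomer mice against 1073, and 1.39% of genes for the interaction against 2.14%. The *Cd46* interaction did not pass with all 48 mice (adjusted p = 0.0695), without a batch term (0.0570), within batch 1 (0.788) or with a replicate block (-0.48, 0.0876). The published methods describe mice matched across groups by weight, age, delivery date and, where possible, cage. Which mice were matched is not given by the labels used here, so the main fit ignored it. Same-numbered mice had correlations of their deviations from -0.36 to 0.39. These were over 0.1 in 4 of 11 cases for PFF at 21% O2 and 1 of 7 at 11% O2. For 11% O2 they were over 0.1 in 0 of 8 cases in monomer mice and 5 of 10 in PFF mice. With a replicate block 0 members were called in all 5 comparisons. The all-gene calls then went from 549 to 461 for PFF at 21% O2 and from 1073 to 1124 for 11% O2 in monomer mice. Depth limits *C5ar1*, with 8 to 35 counts per mouse.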
